A study of Mus musculus with 6 samples.

Results

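Expression of p53, its inhibitors and the genes through which it halts the cell cycle was examined in methotrexate-selected and untreated 4T1 cells. The set of 10 genes was chosen by name: Trp53, its inhibitors Mdm2 and Mdm4, and the target genes Cdkn1a, Btg2, Ccng1, Trp53inp1, Sesn1, Phlda3 and Zmat3. Of these, 8 had a probe set annotated to that gene alone and were among the 19933 genes tested. Cdkn1a was covered only by a probe set that carries a second gene symbol, 4930567H12Rik, and is given apart from the 8. Trp53 itself was not analysed here.

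The cells were 4T1, a line from a mammary carcinoma of the mouse. MR13 cells (3 arrays) are 4T1 cells that survived selection with methotrexate, a folate antagonist that blocks the supply of nucleotides for DNA synthesis, given at 13 µg/ml for up to 2 weeks per the labels (the study's text describes a different exposure). WTR- cells (3 arrays) are 4T1 cells that received no drug. Levels were read from total RNA on Affymetrix Mouse Gene 1.0 ST arrays, 1 sample to an array. MR13 is 1 selected line grown in triplicate wells, so the p values measure the spread between wells of that line and of its untreated counterpart, and differences between independent selections were not measured. The study describes a return of the surviving cells to medium without the drug, and the labels do not say whether methotrexate was present when RNA was taken.

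p53 is a transcription factor that accumulates when DNA is damaged or nucleotides run short. Its best known arrest target is Cdkn1a, which encodes p21, an inhibitor of the cyclin-dependent kinases that drive entry into S phase. The ubiquitin ligase MDM2 and its partner MDM4 hold p53 down, and because Mdm2 is itself a p53 target the pair forms a feedback loop. The 4T1 line is generally described as lacking functional p53, and several of the genes below are also induced by FOXO factors, p63 or STAT3.

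p53 binds as a tetramer to a pair of adjacent half-sites of 10 bases each. To show which of these genes carry such letters near their start, windows around the start of each gene (250 bases before to 50 after, RefSeq, GRCm38.p6) were searched on both strands for the p53 consensus half-site, for TTCNNNGAA, the core bound by STAT factors, and for GTAAACA, the core bound by FOXO factors. Windows were held for 8 of the 10 genes, 11 windows in all, with none for Trp53inp1 or Zmat3. The matches shown here stand on the gene's strand with the half-site in capitals, at chr17:29090896-29090925 and chr17:29090918-29090947 for Cdkn1a (+ strand), chr10:117710925-117710954 for Mdm2 (- strand), chr11:40755452-40755481 for Ccng1 (- strand) and chr10:41887256-41887285 for Sesn1 (+ strand).
Cdkn1a, first match: tcctgggtggGGACTAGCTTtctggccttc
Cdkn1a, second match: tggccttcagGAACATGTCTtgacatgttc
Mdm2: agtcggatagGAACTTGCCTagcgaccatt
Ccng1: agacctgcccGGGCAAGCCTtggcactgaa
Sesn1: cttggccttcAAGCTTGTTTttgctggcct

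A p53 half-site was found in the windows of 5 of these 8 genes (the 4 printed and Trp53), against 9.55% of all 27025 genes with a window. Most of the 8 were chosen as known p53 targets and 3 had more than 1 window, so the higher share is no independent result. The search was for single half-sites, not for the pair that p53 binds. The Cdkn1a matches lie before the upstream of its 2 annotated starts, which are 2790 bases apart. The Sesn1 match lies before the downstream of the 2 starts searched for that gene. GTAAACA was found in the windows of Sesn1 and Mdm2, against 4.05% of all genes, and TTCNNNGAA in those of none of the 8 genes, against 9.55%. These are matches of letters within a short window, and many p53 sites lie in introns or far upstream, outside what was searched. Genes with a half-site in the window did not share a direction on the arrays, since Sesn1 was higher and Mdm2 and Ccng1 were lower in MR13.

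Of the 8 genes tested, 2 were higher in MR13 (Trp53inp1 and Sesn1), 2 were lower (Ccng1 and Mdm2) and 4 were not called (Zmat3, Btg2, Mdm4 and Phlda3), by limma at an adjusted p under 0.05 over all genes. Among all genes 37.6% were called, 17.0% as higher and 20.6% as lower, so a large share of the transcriptome passed. Of the 8 genes, 0 were in the dimmest 30% of genes. With those dim genes left out and the fit repeated, 54.8% of the rest were called (3431 higher, 4209 lower). In that fit 2 of the 8 genes were higher and 3 lower, with Zmat3 added to the lower. The p53 and p21 lists below, apart from the relatives (3 genes), hold at most 1 such dim gene each. Their shares come from the fit over all genes. They are to be read with the 54.8% of the repeated fit in mind, not only beside the shares of all genes. The median difference of the 8 genes was 0.04 on the log2 scale, beside 0.01 for all genes. The groups did not overlap for 5 of the 8 genes, beside 47.4% of all genes. A change of at least 2-fold was called for 1 of the 8, Trp53inp1, beside 4.06% of all genes (1.96% as higher). Differences are given throughout as MR13 minus WTR- on the log2 scale.

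**Figure D1:**
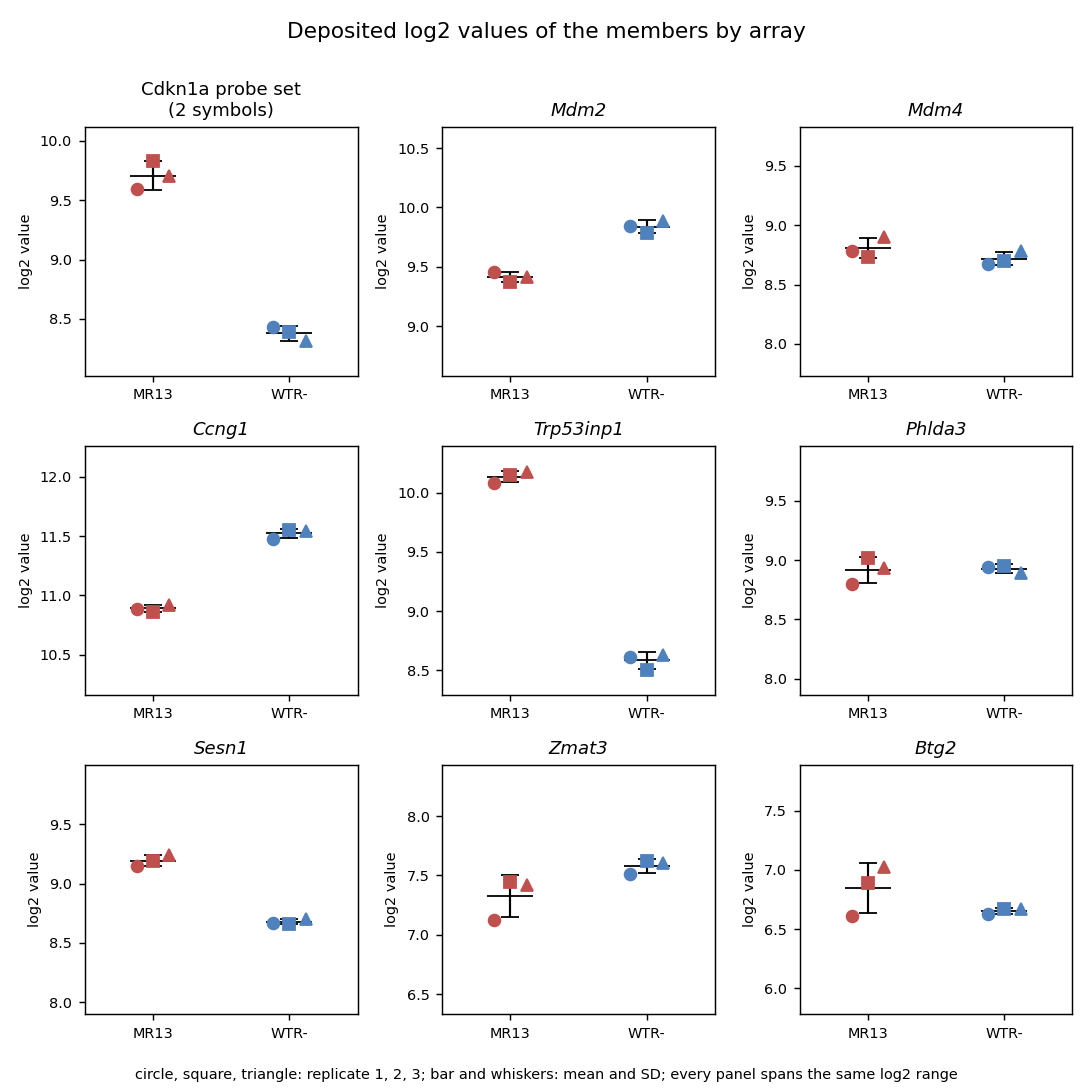
Log2 values of each gene on the 3 MR13 arrays (left, red) and the 3 WTR- arrays (right, blue), with marker shapes for the replicates, a bar for the mean and whiskers for the SD. All panels span an equal log2 range, and MR13 lies wholly above WTR- for Trp53inp1, Sesn1 and the Cdkn1a probe set and wholly below it for Ccng1, Mdm2 and Zmat3.

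Mdm2, the ligase that marks p53 for degradation, had log2 values of 9.45, 9.37 and 9.41 in MR13 and 9.84, 9.78 and 9.89 in WTR-. Every MR13 array was below every WTR- array. The means were 9.41 ± 0.04 in MR13 and 9.84 ± 0.05 in WTR- (SD, n = 3 each), a difference of -0.43 (SE 0.05, 95% interval -0.55 to -0.30), or 1.34-fold lower in MR13, with an adjusted p of 0.000237 (limma). Mdm4, the related protein that binds p53 and blocks its activity without degrading it, had values of 8.78, 8.73 and 8.90 in MR13 and 8.68, 8.70 and 8.78 in WTR-. These groups overlapped, and the difference of 0.09 (SE 0.06, 95% interval -0.06 to 0.23) was not called (adjusted p = 0.332, limma). Mdm2 was called and Mdm4 was not, and whether the 2 inhibitors differed from each other was not tested.

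The probe set annotated to both Cdkn1a and 4930567H12Rik had values of 9.59, 9.83 and 9.70 in MR13 and 8.43, 8.39 and 8.31 in WTR-. All 3 MR13 arrays were above all 3 WTR- arrays. The mean was 9.71 ± 0.12 in MR13 and 8.38 ± 0.06 in WTR- (SD, n = 3 each). The difference was 1.33 (SE 0.07, 95% interval 1.16 to 1.5), 2.52-fold higher in MR13, with an adjusted p of 4.61e-06 in the limma fit over all 28350 probe sets, of which 32.4% were called and 14.1% were called as higher. The RefSeq transcripts that the array annotation lists for this probe set are those of Cdkn1a, and 4930567H12Rik, a noncoding RNA, is placed on another chromosome, but the annotation gives both symbols and the signal cannot be assigned to p21 alone from these files. The call was kept in all 12 alternative settings run for it, with differences of 1.27 to 1.39.

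Btg2, an antiproliferative protein that recruits deadenylases to mRNA and slows passage through G1, had values of 6.61, 6.89 and 7.02 in MR13 and 6.63, 6.67 and 6.67 in WTR-. MR13 replicate 1 lay below all WTR- arrays and the other MR13 replicates above them. The difference of 0.19 (SE 0.10, 95% interval -0.03 to 0.41) was not called (adjusted p = 0.166, limma). It rests on that array, since without MR13 replicate 1 the difference was 0.31 and was called (adjusted p = 0.0076). MR13 replicate 1 was the lowest MR13 array for 5 of the 8 genes and for 45.8% of all genes.

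Ccng1 encodes cyclin G1, a p53 target that recruits a phosphatase to MDM2. It had values of 10.89, 10.86 and 10.92 in MR13 and 11.48, 11.55 and 11.54 in WTR-, without overlap. The means were 10.89 ± 0.03 in MR13 and 11.52 ± 0.04 in WTR- (SD, n = 3 each), a difference of -0.63 (SE 0.05, 95% interval -0.75 to -0.52). Ccng1 was 1.55-fold lower in MR13 (adjusted p = 1.51e-05, limma), and 9.66% of all genes had a larger difference in either direction.

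Trp53inp1 showed the largest difference of the 8 genes tested. It encodes a nuclear protein that enhances p53 activity and also takes part in autophagy. Its values were 10.08, 10.145 and 10.18 in MR13 and 8.62, 8.51 and 8.63 in WTR-, and the gap between the groups was far wider than the spread within either. The means were 10.13 ± 0.05 in MR13 and 8.59 ± 0.07 in WTR- (SD, n = 3 each). The difference was 1.55 (SE 0.06, 95% interval 1.42 to 1.68), 2.93-fold higher in MR13 (adjusted p = 1.39e-07, limma). Of all genes, 1.66% had a larger difference in either direction.

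Sesn1, which encodes a sestrin, a stress-induced protein that restrains mTORC1 signalling, was the other gene called as higher. It had values of 9.15, 9.19 and 9.24 in MR13 and 8.67, 8.66 and 8.70 in WTR-. The groups were apart, with means of 9.19 ± 0.05 in MR13 and 8.68 ± 0.02 in WTR- (SD, n = 3 each). The difference of 0.51 (SE 0.05, 95% interval 0.40 to 0.63) is 1.43-fold (adjusted p = 5.44e-05, limma).

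Zmat3, a zinc finger protein that binds RNA and regulates splicing, had values of 7.12, 7.44 and 7.42 in MR13 and 7.51, 7.62 and 7.605 in WTR-. All MR13 arrays were below all WTR- arrays, with replicate 1 the lowest. The difference was -0.25 (SE 0.09, 95% interval -0.45 to -0.05) and missed the threshold narrowly (adjusted p = 0.0501, limma). Its call moved with the setting: it was called in 5 of the 16 alternatives, among them the one without MR13 replicate 2 (-0.31, adjusted p = 0.0371), and was not called without MR13 replicate 1 (-0.15, adjusted p = 0.0931).

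Phlda3, a pleckstrin homology protein that competes with AKT for membrane lipids, had values of 8.80, 9.02 and 8.93 in MR13 and 8.945, 8.95 and 8.89 in WTR-. The MR13 values spanned those of WTR- on both sides. The difference of -0.01 (SE 0.07, 95% interval -0.16 to 0.14) was not called (adjusted p = 0.910, limma), and the interval leaves out changes beyond 0.16 in either direction.

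**Figure D2:**
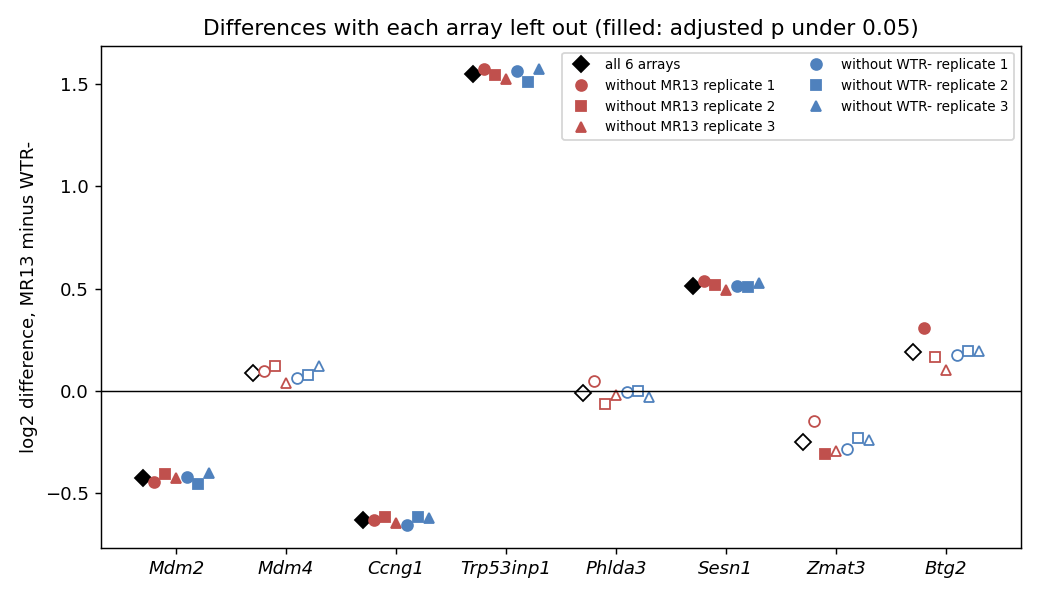
Log2 difference (MR13 minus WTR-) of each of the 8 genes with all 6 arrays (black) and with each MR13 array (red) or WTR- array (blue) left out, filled where the adjusted p was under 0.05. Trp53inp1, Sesn1, Ccng1 and Mdm2 keep their direction and call throughout, Btg2 is called only without MR13 replicate 1 (0.31), and Phlda3 turns from -0.01 to 0.05 there.

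Because bulk RNA was measured, a lower level cannot be told apart from fewer cells that carry the transcript, and the make-up of the cultures is given beside the results. Of 8 epithelial carcinoma markers, 7 were lower in MR13 and Krt8 was not called (0.12), and their mean level per array was 8.44 to 8.64 in MR13 against 11.4 to 11.5 in WTR-. Of 8 fibroblast markers, 3 were higher (Pdgfra by 1.82, Dcn by 1.70 and Pi16 by 1.13) and Col1a1, Col1a2 and Thy1 were not called, with mean levels of 6.42 to 6.54 in MR13 against 5.80 to 5.90 in WTR-. Of 7 leukocyte markers only Cd68 was called (0.35 higher), and none of the 6 endothelial markers was called by limma (0 at an unadjusted p under 0.05). The part of these shifts in the results on p53 genes was not tested. Array medians lay between 6.57 and 6.62, and arrays correlated at 0.998 to 0.999 within a group and 0.984 to 0.987 between groups.

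The relatives of these genes were called in both directions. Of the 16 measured relatives, 6 (37.5%) were higher, 4 (25%) lower and 6 not called, beside 17.0% and 20.6% of all genes, with a median of 0.02. Trp53inp2, the paralogue of Trp53inp1 and likewise an autophagy protein, had values of 10.57, 10.77 and 10.65 in MR13 and 8.28, 8.11 and 8.12 in WTR-. Both members of this pair were higher, Trp53inp2 by 2.49 (SE 0.07, 5.63-fold). Sesn3, a sestrin induced by FOXO factors, was higher by 0.51 (SE 0.06), close to Sesn1, whereas Sesn2 was at -0.21 and not called (adjusted p = 0.055, limma).

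Cdkn1b, which encodes the p21 relative p27, had values of 10.92, 10.83 and 10.94 in MR13 and 11.31, 11.27 and 11.42 in WTR-, a difference of -0.43 (SE 0.06). It was lower in MR13, while the probe set shared by Cdkn1a was higher and Cdkn1c, encoding p57, was not called (0.03). Phlda2, an imprinted relative of Phlda3, was lower by a wide margin (-2.08, SE 0.07, 4.23-fold), and Phlda1 was higher (0.30). In the antiproliferative BTG and TOB family, Btg1 (-0.47) and Tob1 (-0.51) were lower, Tob2 (0.28) was higher and Btg4, which is in the dimmest 30% of genes, was not called (0.01).

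Ccng2, the other cyclin G gene and a known FOXO target, was not called (0.11). Among the zinc finger relatives of Zmat3, Zmat1 (1.01, from the dimmest 30% of genes) and Zmat2 (0.50) were higher, and Zmat4 (-0.05) and Zmat5 (-0.15) were not called. Of the other p53 family genes, Trp63 had values of 7.12, 7.04 and 7.12 in MR13 and 6.39, 6.65 and 6.48 in WTR-. Trp63, whose protein p63 binds many of the sites that p53 binds and is otherwise known from basal epithelium, was higher by 0.59 (SE 0.07), and Trp73 was not called (0.04).

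**Figure D3:**
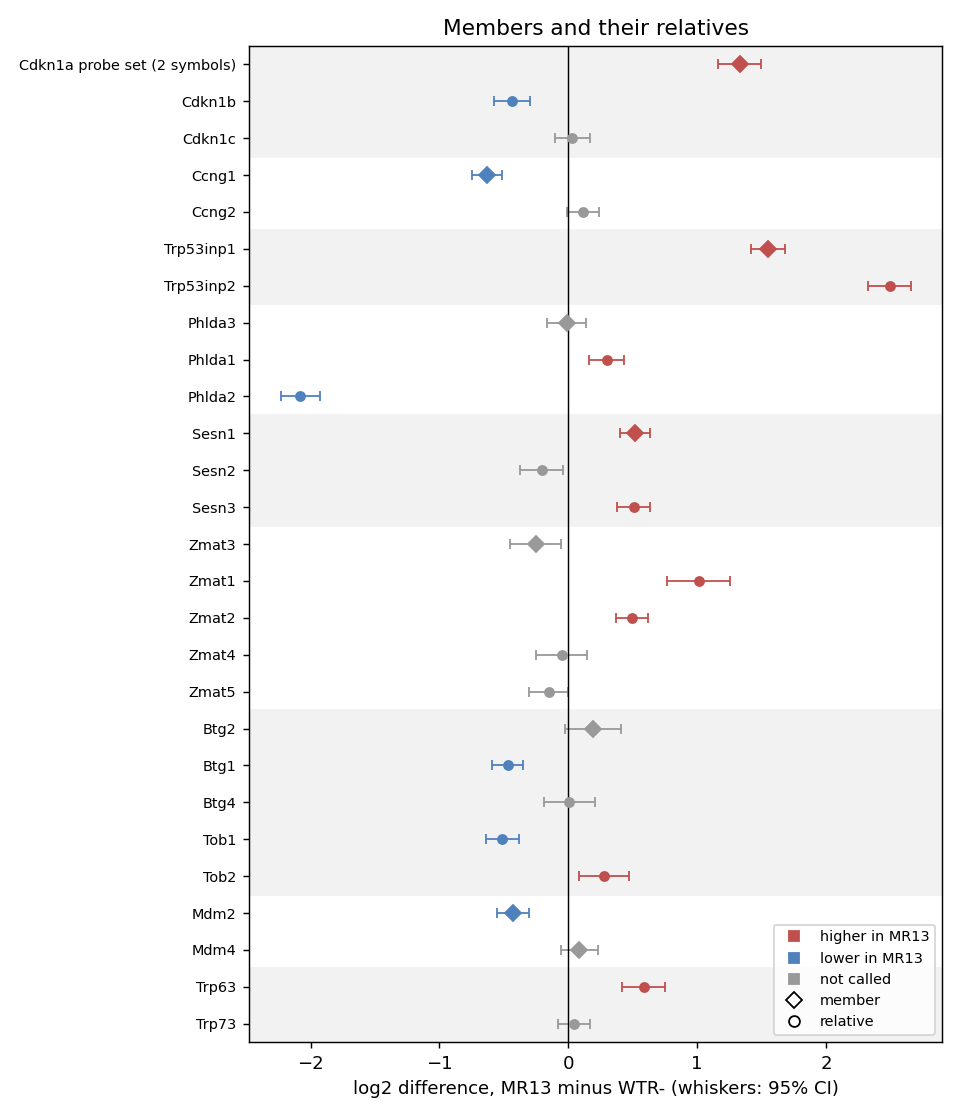
Log2 difference (MR13 minus WTR-) with its 95% interval for each gene (diamonds) and its relatives (circles), grouped by family in shaded bands, in red where called as higher, blue as lower and grey where not called. Relatives were called in both directions in the Phlda band (Phlda2 at -2.08 and Phlda1 at 0.30) and the BTG and TOB band, while both Trp53inp genes are higher. The Cdkn1a probe set carries 2 symbols and its interval comes from the fit over all probe sets.

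Genes that act on p53 itself were called in both directions. Of 26 measured regulators, 11 (42.3%) were higher, 8 (30.8%) lower and 7 not called, beside 17.0% and 20.6% of all genes, with a median of 0.06. Hipk2, a kinase that phosphorylates p53, was higher by 1.04 (SE 0.06), and so were the acetyltransferase Ep300 (0.75) and Ppp1r13b, whose product ASPP1 promotes p53 activity (0.68). Ppp1r13l, encoding the inhibitory iASPP, was lower (-0.78, SE 0.06), as were the p53 ubiquitin ligase gene Rchy1 (-0.56) and the deubiquitinase gene Usp10 (-0.51). The damage kinase gene Atm (0.32) and the p53 phosphatase gene Ppm1d (0.27), itself a p53 target, were higher. Cdkn2a, whose products include the MDM2 inhibitor ARF, Usp7 and Chek2 were not called (0.02, -0.09 and -0.03). The Cdkn2a probe set read an identical 6.9996 on all 3 MR13 arrays (SD 0), so it may carry little information on this gene.

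Other direct targets of p53, taken from 3 lists by role, were called in both directions. Of 47 measured targets beyond the genes above, 10 (21.3%) were higher and 22 (46.8%) lower, beside 17.0% and 20.6% of all genes, with a median of -0.17. Among 17 targets in cell cycle arrest and DNA repair, 4 were higher and 9 lower. Sfn, which encodes 14-3-3σ and holds cells in G2, had values of 7.04, 7.31 and 7.38 in MR13 and 9.89, 10.04 and 10.07 in WTR- and fell by 2.76 (SE 0.09, 6.76-fold). The nucleotide excision repair gene Ddb2 (-0.98) and the phosphatase gene Cdc14b (-0.56) were lower, while Gtse1, a negative regulator of p53 in G2 (0.80), Gadd45a (0.30) and the replication clamp gene Pcna (0.23) were higher.

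Among 15 death targets, 1 (6.67%) was higher and 7 (46.7%) lower, beside 17.0% and 20.6% of all genes. Fas, the death receptor gene, was higher by 1.08 (SE 0.08), with values of 7.75, 7.79 and 7.97 in MR13 and 6.64, 6.87 and 6.74 in WTR-. Perp, which encodes a desmosome protein, was lower by 2.06 on the log2 scale (SE 0.05), and the BH3 gene Bid (-0.67) and Ei24 (-0.49) were lower. Without MR13 replicate 1 the number of death targets called as higher was 3, with Eda2r (0.18) and Trp53i13 (0.19) added, both named after their values were seen. Sfn and Perp are also known as epithelial genes, and the 7 epithelial markers that fell are given above.

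Among 15 targets in metabolism and signalling, 5 (33.3%) were higher and 6 (40%) lower, beside 17.0% and 20.6% of all genes. Ak1, an adenylate kinase gene, had values of 9.47, 9.66 and 9.52 in MR13 and 7.18, 7.18 and 7.07 in WTR-, a difference of 2.4 (SE 0.07, 5.30-fold). Ephx1, an epoxide hydrolase gene (1.13), and the lipid transfer gene Pltp (0.80) were higher. The receptor gene Epha2 (-0.90), the diacylglycerol kinase gene Dgka (-0.42) and Tigar, which lowers glycolytic flux (-0.37), were lower.

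Downstream of p21, partners and repressed genes were examined. Some genes stand in several lists and are counted in each, so the counts are not separate results. Pcna is both a p53 target and a p21 partner, and Cdk1 and Ccna2 are both partners and repressed genes. Among the repressed genes, Rbl1 is also listed with the RB and DREAM subunits and E2f1 with the other regulators of Cdkn1a. Of 11 kinases, cyclins and other partners of p21, 4 (36.4%) were higher and 4 (36.4%) lower, beside 17.0% and 20.6% of all genes. Ccnd2, encoding cyclin D2, had values of 8.06, 8.04 and 7.80 in MR13 and 10.57, 10.65 and 10.64 in WTR-, a difference of -2.65 (SE 0.08). Cdk2 (-0.50) and Cdk4 (-0.22) were lower, and Cdk6 (0.44) and Ccnd1 (0.26) were higher.

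Active p21 leads to repression of mitotic and S phase genes through RB and the DREAM complex. Of 20 such genes measured, 13 (65%) were higher in MR13 and 3 (15%) lower, beside 17.0% and 20.6% of all genes, with a median of 0.23. The mitotic genes Aurka (0.55), Cenpf (0.51) and Cdc25c (0.48) were higher, and Mcm5 (-0.24), Ect2 (-0.22) and Cdk1 (-0.19) were lower, and at a minimum of 1.5-fold 0 genes of the list were called, beside 11.0% of all genes. Of the 12 subunits of the RB and DREAM complexes, 3 (25%) were higher and 4 (33.3%) lower. Rb1 had values of 8.92, 8.86 and 8.92 in MR13 and 8.05, 8.0 and 8.02 in WTR-, a difference of 0.88 (SE 0.05), and Rbl1 (0.22) and Rbbp4 (0.16) were higher. E2f4 (-0.55), Rbl2 (-0.47) and Lin54 (-0.30) were lower.

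Cdkn1a is also regulated by factors other than p53. The list of these factors mixes activators with repressors such as Myc, so its counts and median give no direction of effect on Cdkn1a. Of 19 such regulators measured, 11 (57.9%) were higher and 4 (21.1%) lower, beside 17.0% and 20.6% of all genes, with a median of 0.42. Stat3 had values of 11.06, 11.15 and 11.08 in MR13 and 9.75, 9.66 and 9.56 in WTR-, a difference of 1.44 (SE 0.06). Egr1 (1.26) and Cebpb (1.25) were higher. Of the FOXO genes, named after their values were seen, Foxo1 (0.73) and Foxo3 (0.48) were higher and Foxo4 (0.06) was not called. Myc, which with the zinc finger protein encoded by Zbtb17 represses Cdkn1a, was lower (-0.84, SE 0.05), as were Zbtb17 (-0.33) and Klf6 (-0.59).

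**Figure D4:**
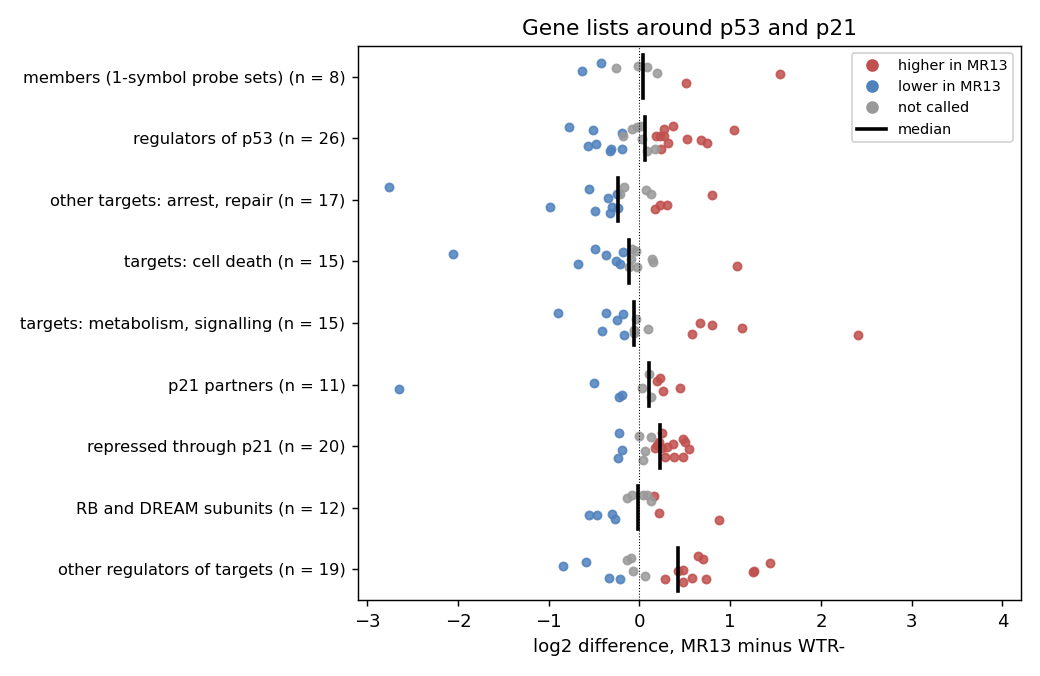
Log2 difference (MR13 minus WTR-) of each measured gene (points) in 9 lists around p53 and p21, red where called as higher, blue as lower and grey where not called, with a black bar at the median of each list. Medians run from -0.24 for the other arrest and repair targets to 0.42 for the other regulators of Cdkn1a, and most lists hold genes called in both directions.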

How the data were processed

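The authors deposited 1 table of log2 values, already normalised between the 6 arrays, and the submitters' processing notes name the R packages affy and limma. Versions, background correction and summarisation are not given in the sources used here. Array number (3 per group) limits precision. Of 28350 probe sets, 21780 had 1 gene symbol and 1618 several. A gene was represented by its 1-symbol probe set with the highest mean, leaving 19933 genes. MR13 was compared with WTR- by limma 3.58.1 in R 4.3.3 (lmFit and eBayes, two-sided), with Benjamini-Hochberg adjustment over all genes and a threshold of 0.05. On simulated data with 200 of 19933 genes changed, 94% of 1.5-fold and 32% of 1.25-fold changes were recovered. In the real data 7497 genes were called, so the adjusted threshold was less strict and these shares do not carry over. Atm, for instance, was called at 1.25-fold (adjusted p = 0.00115, limma).

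The members and lists were chosen with earlier results of these data known. Genes named were all members and their relatives, the p53 family, 5 p53 regulators, and in each list up to 3 genes called as higher and 3 as lower with the greatest differences and no overlap between groups. Alternatives covered normalisation, filters, probe set choice, variance prior, thresholds, replicate block and leaving out each array. Windows around gene starts came from a RefSeq table (GRCm38.p6), and no protein sequences were used here.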

Additional observations from a re-analysis of the deposited data

How the results depend on the processing

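Trp53inp1 kept its direction and call in all 16 alternatives (1.51 to 1.60). Sesn1, Ccng1 and Mdm2 kept their direction in all 16, and lost the call only where a minimum size was asked for. With a minimum of 1.5-fold, 1 of the 8 genes was higher and 1 lower (all genes: 926 higher, 1267 lower, 11% called). With treat, which tests against a difference of 0.5 on the log2 scale, 1 was higher and 0 lower, Ccng1 having an adjusted p of 0.174 (all genes: 660 higher, 802 lower, 7.33% called). The lists held fewer calls too: at 1.5-fold, 0 of the 13 genes repressed through p21 stayed among the higher. The counts of higher and lower were 2 and 1 for relatives, 3 and 1 for regulators, and 0 and 1 for p21 partners. They were 1 and 0 for RB and DREAM subunits and 6 and 2 for other regulators of Cdkn1a. Among targets they were 1 and 2 for arrest and repair, 1 and 2 for death, and 4 and 1 for metabolism and signalling. Under treat the counts of all these lists were at or below those at 1.5-fold, and Trp63 lost its call. Phlda3, not called, was at 0.0455 after quantile normalisation again and at 0.0466 without MR13 replicate 1 (-0.0647 to 0.0466 over the arrays left out). Zmat3 was called with the dimmest 30% of genes left out (adjusted p = 0.0315), with the mean of probe sets (0.0494), with a trended robust prior (0.0314), with the replicate block (0.0195) and without MR13 replicate 2 (0.0371). Leaving out each array gave 2 to 3 of the 8 genes higher and 2 to 3 lower (all genes: 2959 to 3254 higher, 3669 to 3924 lower, 33.7% to 35% called). Quantile normalisation gave 3940 genes higher and 3836 lower, with 5 RB and DREAM subunits and 2 death targets higher. Deviations of same-numbered arrays correlated at 0.128, -0.00124 and 0.182 for replicates 1, 2 and 3. Crossed pairs of numbers 1 and 3 were at -0.197 (MR13 3 with WTR- 1) and -0.122 (MR13 1 with WTR- 3). Deviations sum to 0 within a group, so these values cannot exclude pairing by number. The labels state no pairing, and the main fit used none. With the replicate number as a block, 2 of the 8 genes were higher and 3 lower, and 37.3% of all genes were called. A plain t-test, the methods' test for 2 groups, gave 4 of 8 genes under 0.05 before and 4 after adjustment (all genes: 8140 and 6524 of 19933). Small changes are limited by 3 arrays per group.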
